A study of Mus musculus with 8 samples.

Results

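Interferon-stimulated genes are the genes a cell switches on after an interferon binds its receptor. The 40 described here were picked by symbol: 31 targets of type I interferon, which were 23 antiviral effectors, 4 sensors of viral nucleic acid and 4 transcription factors, and 9 GTPases induced mainly by interferon gamma. All 40 had a row among the 49585 genes measured. The libraries were poly(A) RNA of whole pituitary from wild-type C57BL/6 mice, 4 libraries from young animals (2 to 3 months) and 4 from old animals (18 to 24 months). Neither group carried a transgene or received a treatment. The mice were kept free of specific pathogens and were perfused to remove blood. Summed markers of neutrophils and red cells were still at 13.5 FPKM or more in every library. No source used here states that each library came from a different mouse, so p-values measure only the spread between these 4 samples per age.

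Type I interferons signal through Ifnar1 and Ifnar2 to the kinases Jak1 and Tyk2, which activate Stat2. A complex that holds Stat2 and Irf9 then binds the interferon-stimulated response element (ISRE) in promoters. Interferon gamma signals through Ifngr1 and Ifngr2 and acts on promoters that hold the gamma-activated site (GAS). Many targets respond to both, and several, such as Stat2, Irf9 and Irf7, are themselves parts of the response. In the pituitary the classes of cell that can respond include the hormone-secreting cells, the endothelium and resident macrophages.

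The levels, in FPKM (fragments scaled to the exon length of a gene and to the total of its library, so that genes can be compared per length), were low for most members. Their mean over the 8 libraries ran from 0.1 FPKM for Mx1 to 36.8 FPKM for Ifi27, with a median of 1.98 FPKM, and 29 of 40 had a mean of at least 1 FPKM. No member was at 0 in any library. Ifi27 and Ifitm3 stood above all others, followed by Bst2 and Ifi35, and the oligoadenylate synthetase genes Oas2 and Oas3 stood with Mx1 at the bottom. Library totals were 15042321 to 20429604 fragments.

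**Figure D1:**
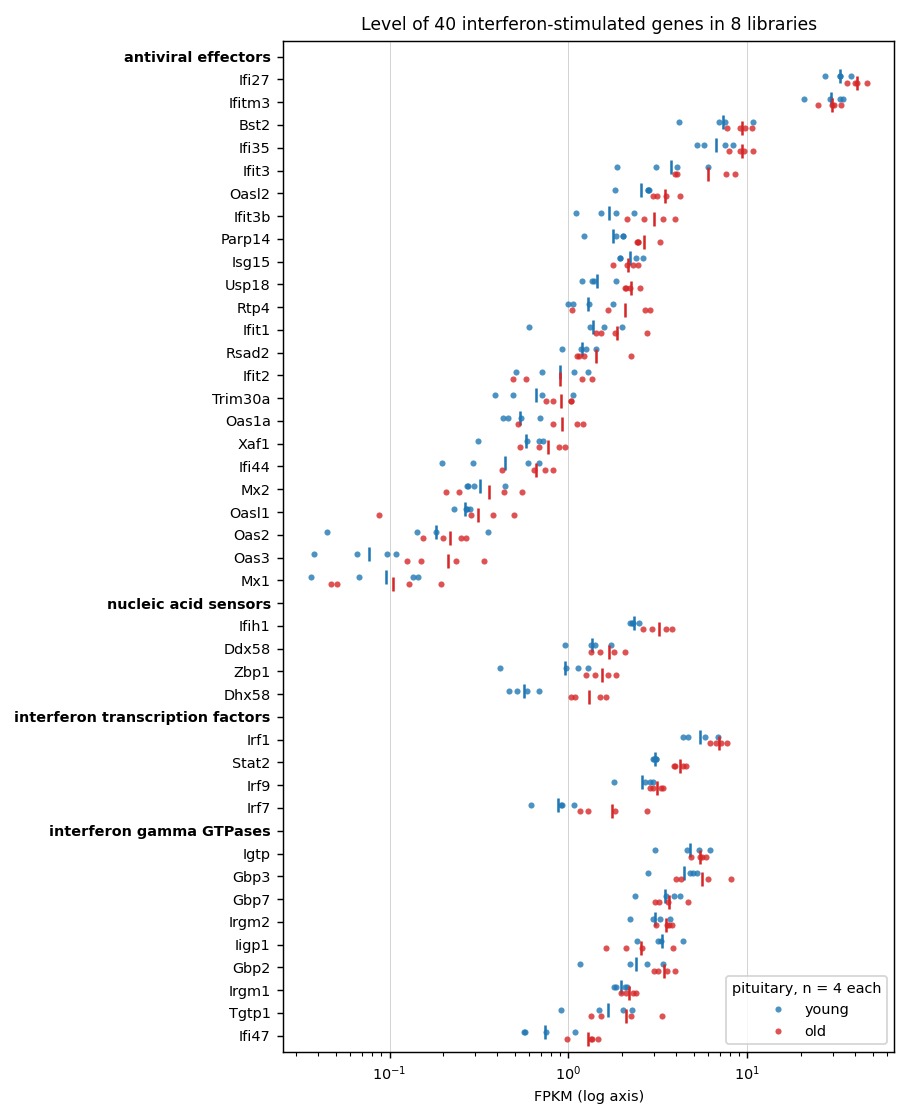
FPKM of each member on a log axis, grouped by role and ordered by mean level. Points are the 4 young (blue) and 4 old (red) libraries and vertical ticks are group means; the groups of most members overlap, while those of Dhx58 and Stat2 are apart.

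Of the 40 members, 1 was higher in old pituitary at an adjusted p under 0.05 (limma on log2(FPKM + 0.1), Benjamini-Hochberg over all 23498 genes tested) and 0 were lower. Among all genes tested the same rule called 1.86% higher and 0.472% lower. At an unadjusted p under 0.05, 13 members were higher and 0 lower, where 18.0% and 3.79% of all genes were. The median log2 fold change of the members, old minus young, was 0.39 (range -0.41 to 1.07), and that of all genes tested was 0.15. Of the 40, 37 lay above 0, as did 70.0% of all genes, and 31 lay above the median of all genes. All 4 old libraries stood above all 4 young libraries for 8 members (Oas3, Oasl2, Usp18, Parp14, Ifih1, Dhx58, Irf7 and Stat2), a pattern that 13.4% of all genes tested showed, and for 0 members did all old libraries stand below all young, which 2.06% of all genes showed.

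The shift of all genes depended on scaling. After relative log expression (RLE) scaling, which sets the typical gene equal among libraries, the median of all genes was 0.0066 and that of the members 0.26, with 32 of 39 members above 0. Then 0 members were called in either direction, beside 0.899% of all genes higher and 0.937% lower. Groups stood apart for 5 members in place of 8 (Dhx58, Irf7, Oas3, Stat2 and Usp18), and the share of all genes after this scaling was not computed. On fragments recovered from the FPKM and tested with limma voom, 7 members were higher (Dhx58, Stat2, Usp18, Parp14, Ifih1, Irf7 and Ifit3b) and 0 lower, beside 6.59% and 1.59% of all genes tested that way. In whole tissue, more cells of a type and more RNA per cell cannot be told apart.

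**Figure D2:**
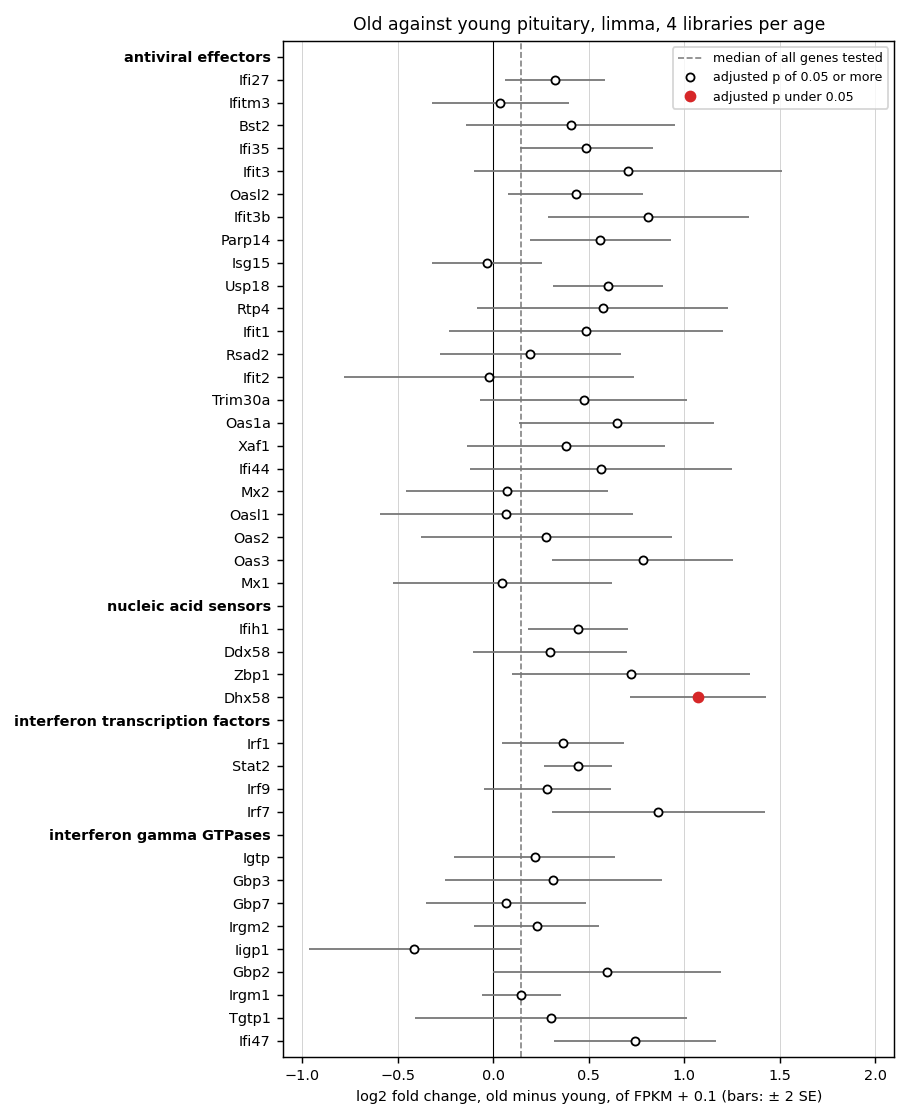
Log2 fold change, old minus young, of each member on the log2(FPKM + 0.1) scale, with bars of ± 2 standard errors from limma (4 libraries per age). The dashed line is the median of all genes tested, 0.15; Dhx58 (filled, 1.07) is the gene with an adjusted p under 0.05, and Iigp1 (-0.41) has the lowest estimate.

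Among the nucleic acid sensors, Dhx58 passed the test. It encodes LGP2, a cytoplasmic RNA helicase of the RIG-I-like family that binds double-stranded RNA and tunes signalling by its relatives. Dhx58 (chr11:100694884-100704271, minus strand, GRCm38) was at 0.516, 0.467, 0.688 and 0.585 FPKM in young libraries 1 to 4 and at 1.5, 1.62, 1.03 and 1.08 FPKM in old libraries 1 to 4. Every old library lay above every young one, and old libraries 1 and 2 were the highest. The means were 0.564 ± 0.0958 (SD, n = 4) and 1.31 ± 0.295 (SD, n = 4), a log2 fold change of 1.07 (SE 0.18, limma adjusted p = 0.031), from 133 young and 304 old fragments in all.

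The call on Dhx58 was near the threshold. After RLE scaling its limma adjusted p was 0.052 at a log2 fold change of 0.94, with voom it was 0.0065, and with 1 library left out in turn it ranged from 0.049 to 0.086, under 0.05 only without old replicate 4. Dhx58 shares 141 exon bases with Dhx58os on the opposite strand, which held 26 young and 63 old fragments, and since no source used here says whether reads were counted by strand, reads of that stretch cannot be assigned to either gene.

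The other sensors had estimates above 0 and did not pass. Ifih1, which encodes the long double-stranded RNA sensor MDA5, was at 2.28, 2.49, 2.27 and 2.20 FPKM in young and at 2.94, 3.5, 2.6 and 3.77 FPKM in old libraries. The young libraries were close together and all lay below the old ones (log2 fold change 0.44, SE 0.13, limma adjusted p = 0.12, voom 0.032). Ddx58, which encodes RIG-I, was at 1.41, 0.952, 1.34 and 1.73 FPKM in young and at 1.81, 2.07, 1.34 and 1.5 FPKM in old libraries, so the groups overlapped (0.30, SE 0.20, limma adjusted p = 0.42). Zbp1, a sensor of Z-form nucleic acid that can start necroptosis, was at 0.972, 0.414, 1.14 and 1.29 FPKM in young and at 1.85, 1.66, 1.41 and 1.25 FPKM in old libraries. Its groups overlapped through young library 4 and old library 4, and young library 2 was far below the rest (0.72, SE 0.31, limma adjusted p = 0.23). Neighbours in the order of the sensors' mean levels, Ifih1, Ddx58, Zbp1 and Dhx58, overlapped in their ranges over the 8 libraries except Ifih1 and Ddx58, whose ranges were 2.20 to 3.77 and 0.952 to 2.07 FPKM.

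All 4 transcription factors had estimates above 0, with a median log2 fold change of 0.40, and 0 of 4 passed the test on FPKM. Stat2, a subunit of the type I complex, was at 2.96, 3.02, 3.09 and 3.10 FPKM in young and at 4.37, 4.54, 3.87 and 3.94 FPKM in old libraries. The young libraries were nearly equal and the groups were apart. The means were 3.04 ± 0.0639 and 4.18 ± 0.325 FPKM (SD, n = 4 each), with a log2 fold change of 0.44 (SE 0.09, limma adjusted p = 0.051, 0.017 with voom and 0.19 after RLE scaling).

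Irf7, the factor that drives transcription of interferon alpha genes, had 0.909, 0.616, 0.920 and 1.07 FPKM in young and 1.81, 2.74, 1.28 and 1.17 FPKM in old libraries. Old library 2 stood far above the other old ones, and the lowest old library was just above the highest young one (log2 fold change 0.86, SE 0.28, limma adjusted p = 0.14, voom 0.047). Irf1, a factor induced early by interferon gamma, was at 5.78, 6.82, 4.67 and 4.36 FPKM in young and at 7.12, 7.69, 6.67 and 6.14 FPKM in old libraries, and young library 2 was the highest young one (0.36, SE 0.16, limma adjusted p = 0.24). Irf9, which gives the type I complex its DNA contact, was at 2.87, 1.80, 2.69 and 2.97 FPKM in young and at 3.275, 3.35, 2.87 and 2.96 FPKM in old libraries, with overlapping groups (0.28, SE 0.17, limma adjusted p = 0.36).

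Of the 23 antiviral effectors, 0 passed the test, 21 had estimates above 0, and the median log2 fold change was 0.43. The most abundant was Ifi27, a small hydrophobic membrane protein, at 33.1, 27.2, 32.9 and 37.7 FPKM in young and 40.7, 46.4, 40.1 and 36.1 FPKM in old libraries. Its groups overlapped through young library 4 and old library 4 (0.32, SE 0.13, limma adjusted p = 0.21). Ifitm3, which hinders the fusion of viral and cell membranes, was at 28.9, 20.8, 32.7 and 34.2 FPKM in young and 29.6, 33.4, 24.8 and 30.3 FPKM in old libraries. Its old libraries lay within the young range, with an estimate of 0.04 that turned to -0.12 after RLE scaling and an interval of ± 2 SE from -0.32 to 0.39 (limma adjusted p = 0.93).

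Bst2, tetherin, which holds budding virus at the cell surface, was at 6.89, 4.12, 7.53 and 10.8 FPKM in young and 9.70, 10.7, 7.70 and 9.05 FPKM in old libraries, and young library 4 was the highest of all 8 (0.40, SE 0.27, limma adjusted p = 0.42). Usp18, the protease that removes Isg15 from proteins and dampens signalling at Ifnar2, was at 1.36, 1.19, 1.39 and 1.84 FPKM in young and 2.07, 2.52, 2.1 and 2.19 FPKM in old libraries. These groups did not overlap (0.60, SE 0.14, limma adjusted p = 0.073, 0.031 with voom and 0.10 after RLE scaling). Without young replicate 4 Usp18 passed the test on FPKM at a limma adjusted p of 0.048. With any other library left out it did not pass, at limma adjusted p of 0.12 to 0.17.

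Within the family of Ifit genes, whose proteins bind viral RNA, the estimates differed although the genes neighbour each other on chromosome 19. Ifit3 was at 3.07, 1.87, 4.04 and 6.05 FPKM in young and 7.55, 8.52, 3.95 and 4.06 FPKM in old libraries, so old libraries 1 and 2 were high and old libraries 3 and 4 lay inside the young range (0.70, SE 0.40, limma adjusted p = 0.35). Its near copy Ifit3b had a log2 fold change of 0.81 (SE 0.26, limma adjusted p = 0.14, voom 0.048), and reads that fit both genes make their separate values uncertain. Ifit1 had 0.49 (SE 0.36) and Ifit2 -0.02 (SE 0.38), with old library 2 the highest of 8 for all 4 genes. A difference between the family's members was not tested.

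Isg15, a ubiquitin-like modifier, was at 2.39, 1.93, 1.94 and 2.6 FPKM in young and 2.30, 2.43, 1.78 and 2.12 FPKM in old libraries. Old library 3 was the lowest of the 8 and the other old libraries lay inside the young range, with a log2 fold change of -0.03, an interval of ± 2 SE from -0.32 to 0.25, and 119 young and 116 old fragments. The oligoadenylate synthetase family, several of whose products activate RNase L, gave estimates from 0.07 for Oasl1 (-0.041 after RLE scaling) to 0.78 for Oas3. Oas3 had old values of 0.125 to 0.337 FPKM above young values of 0.0376 to 0.108 FPKM, from 4 to 44 fragments per library (SE 0.24, limma adjusted p = 0.12). The dynamin-like Mx1 and Mx2 had estimates of 0.05 and 0.07, and that of Mx2 turned to -0.043 after RLE scaling. The remaining effectors were Ifi35, Ifi44, Oas1a, Oas2, Oasl2, Parp14, Rsad2, Rtp4, Trim30a and Xaf1, with estimates from 0.19 for Rsad2 to 0.64 for Oas1a.

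**Figure D3:**
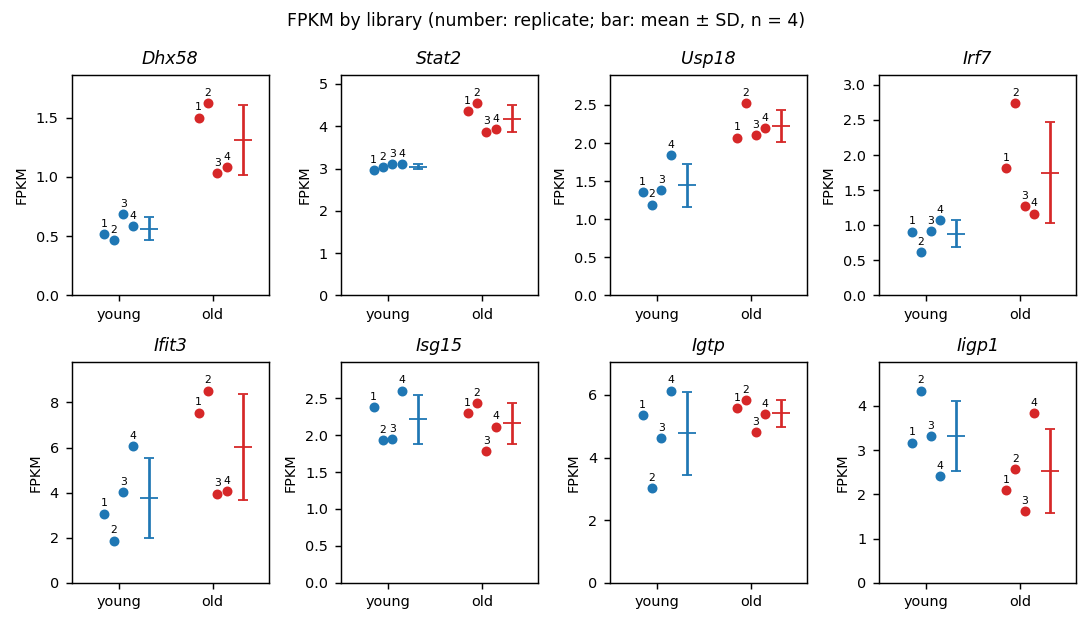
FPKM of 8 members by library, on linear axes that start at 0. Points carry the replicate number, and bars are mean ± SD (n = 4 per age); Dhx58, Stat2, Usp18 and Irf7 have groups that do not overlap, and Ifit3, Isg15, Igtp and Iigp1 have groups that do.

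Of the 9 GTPases, 0 passed the test on FPKM and 0 with voom, the median log2 fold change was 0.23 (0.079 after RLE scaling, beside 0.0066 for all genes), and 0 had groups that did not overlap. The 31 type I targets had a median of 0.44 (0.29 after RLE scaling), 1 call and 8 members with groups apart, beside 13.4% of all genes. After RLE scaling 5 type I targets and 0 GTPases had groups apart, and the share of all genes was not computed. Without young replicate 2 the median of the GTPases was 0.086 and that of the type I targets 0.28, beside 0.12 for all genes. Without young replicate 4 the GTPases were at 0.35 and the type I targets at 0.57, beside 0.18 for all genes. The difference between both sets was not tested. The GTPases act at the membranes that enclose intracellular pathogens: guanylate-binding proteins coat them, and immunity-related GTPases disrupt them under the control of Irgm1, Irgm2 and Igtp.

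Igtp was at 5.35, 3.02, 4.62 and 6.14 FPKM in young libraries and 5.59, 5.83, 4.82 and 5.40 FPKM in old ones, all inside the young range (0.22, SE 0.21, limma adjusted p = 0.58). Gbp3 was at 4.95, 2.77, 4.75 and 5.24 FPKM in young and 6.03, 8.09, 4.26 and 4.01 FPKM in old libraries, with old library 2 the highest (0.31, SE 0.28, limma adjusted p = 0.55). Gbp7 was at 4.18, 2.37, 3.5 and 3.89 FPKM in young and 3.20, 4.66, 3.03 and 3.61 FPKM in old libraries, an estimate of 0.07 that turned to -0.080 after RLE scaling (SE 0.21, limma adjusted p = 0.88). Young library 2 was the lowest of the 8 libraries for these 3 genes.

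The GTPase with the highest estimate was the effector Ifi47, between 0.565 and 1.08 FPKM in young libraries and between 0.986 and 1.46 FPKM in old ones (0.74, SE 0.21, limma adjusted p = 0.11). Irgm1 and Irgm2, the regulators, had estimates of 0.15 and 0.23, Gbp2 had 0.59 and Tgtp1 0.30. Iigp1, an effector GTPase, went the other way. It was at 3.17, 4.35, 3.31 and 2.42 FPKM in young and 2.09, 2.57, 1.63 and 3.83 FPKM in old libraries, and young library 2, in which most members were lowest, was its highest (-0.41, SE 0.28, limma adjusted p = 0.42). Several counts here are uncertain, since Igtp and Irgm2 share 162 exon bases, Ifi47 shares 111 with Olfr56, Tgtp1 has a close copy in Tgtp2, and the guanylate-binding genes resemble each other.

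Many members shared their lowest and their highest library. Young library 2 was the lowest of the 8 libraries for 30 of 40 members, against 28.2% of all genes tested, and after RLE scaling for 27. This library had the lowest RLE factor (0.892) and the highest share of fragments in ribosomal RNA repeat genes (40.3%, against 33.8 to 39.0% in the others). Young library 1 was close on both (0.905 and 39.0%) and was the lowest of 8 for 2 members, against 28.4% of all genes. The part of these library traits in the values of the members was not tested. Old library 2 was the highest of 8 for 23 members, against 15.3% of all genes, and after RLE scaling for 18. For both libraries the share of all genes after RLE scaling was not computed. Old libraries 1 and 2 were together the highest pair for 19 of 40 members, against 5.81% of all genes. The median SD of a member within an age was 0.375 on the log2(FPKM + 0.1) scale, and that of all genes tested was 0.258.

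The median of the members was lower when either of these 2 libraries was left out. Without young replicate 2 the median log2 fold change of the members was 0.22, beside 0.12 for all genes, with 33 of 40 above 0. For 17 of 40 members the estimate shrank by over 1.5 times without changing sign, among them Bst2 (0.40 to 0.16), Ifit1 (0.49 to 0.16), Zbp1 (0.72 to 0.41), Irf9 (0.28 to 0.12), Gbp2 (0.59 to 0.30), Gbp3 (0.31 to 0.11) and Igtp (0.22 to 0.017), and for 4 it changed sign. Without old replicate 2 it was 0.31, beside 0.15 for all genes. The exceptions to the pattern of young library 2 were Mx2, Irf1, Ifih1 and Iigp1, whose highest young value was in that library, and Oas1a, Stat2, Isg15, Irgm1, Ifit2 and Oasl1, for which another library was lowest.

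**Figure D4:**
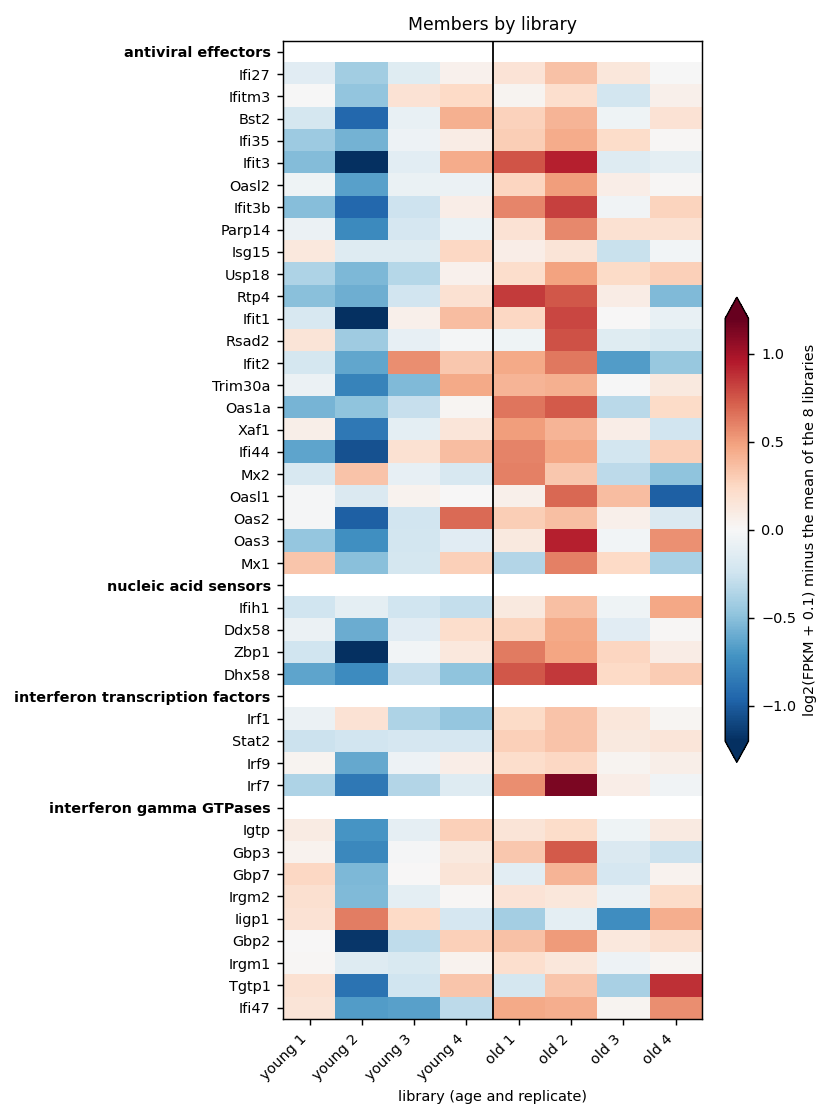
Each member's log2(FPKM + 0.1) in each library minus its mean over the 8 libraries, with blue below and red above that mean; colours saturate at 1.2. The column of young 2 is the bluest (lowest of 8 for 30 members), and the column of old 2 the reddest (highest of 8 for 23).

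The promoters of the members were read from RefSeq (GRCm38.p6, 250 bases before to 50 after the start) and searched on both strands for the core of the ISRE, GAAANNGAA, and the core of the GAS, TTCNNNGAA. Of the 40 members, 30 had 35 promoters in that set. The ISRE core stood in 22 of 35 (62.9%), against 8.56% of all 32851 promoters, and the GAS core in 10 of 35 (28.6%), against 8.30%. Matches of both kinds overlapped in 2 member promoters. By gene, 14 of 22 type I targets and 7 of 8 GTPases had an ISRE core, and 6 and 4 had a GAS core. A match is a description of the letters and no sign of binding in these samples.

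The windows below, chosen after the values and matches had been seen, show promoters of members with differing estimates, with motif letters in capitals and each read 5′ to 3′ along the gene's strand. Stat2, with groups apart, has 1 ISRE core, and Isg15 and Ifit1, with overlapping groups, have 3 each, in part sharing letters. Among other members with groups apart, Ifih1 and Oas3 have 2 each and Irf7 and Oasl2 have 0. Usp18, Parp14 and Dhx58, the member that passed the test, had no promoter in the set searched. The stretches of Ifit3 and Ifit3b are identical.
Stat2 (chr10:128270271-128270291, plus strand): cctggtTTCAGTTTCctttcc
Isg15 (chr4:156200870-156200902, minus strand): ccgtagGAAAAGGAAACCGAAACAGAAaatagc
Ifit1 (chr19:34640774-34640819, plus strand): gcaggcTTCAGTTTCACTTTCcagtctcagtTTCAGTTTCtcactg
Ifit3 (chr19:34583368-34583441, plus strand): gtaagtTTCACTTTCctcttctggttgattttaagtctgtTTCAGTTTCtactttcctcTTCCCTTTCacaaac
Ifit3b (chr19:34607764-34607837, plus strand): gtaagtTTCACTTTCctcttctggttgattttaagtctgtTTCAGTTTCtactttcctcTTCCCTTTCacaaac

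The GTPase genes Igtp, Irgm2 and Tgtp1 each have a GAS core followed after 2 bases by an ISRE core, and in Gbp7 the nearest pair is 26 bases apart. They are shown because these 3 genes share the arrangement. Irf1 has a GAS core and no ISRE core in its window.
Igtp (chr11:58199505-58199536, plus strand): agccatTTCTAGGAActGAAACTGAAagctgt
Irgm2 (chr11:58214896-58214927, plus strand): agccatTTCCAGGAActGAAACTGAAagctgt
Tgtp1 (chr11:48992309-48992340, minus strand): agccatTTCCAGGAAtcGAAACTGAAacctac
Irf1 (chr11:53769918-53769938, plus strand): cctgatTTCCCCGAAatgatg

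The ligands were at or near 0. Of 21 interferon genes, 18 were at 0 in all 8 libraries, and the highest value was 0.0729 FPKM. Over the 20 with fragments computed there were 2 young and 1 old fragments in all. A library with 0 fragments could still stand for up to 3, so low expression was not detectable at this depth.

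The receptors and signalling genes were present, with 0 of 10 passing the test on FPKM. With voom 2 of 10 were called higher (Ifnar2 and Ifngr1), beside 6.59% of all genes tested that way. All old libraries stood above all young for 4 of 10 (Ifnar2, Ifngr1, Tyk2 and Jak1), beside 13.4% of all genes tested. Ifnar2 was at 3.86 ± 0.398 FPKM in young and 5.25 ± 0.399 FPKM in old libraries (SD, n = 4, log2 fold change 0.44, limma adjusted p = 0.080) and Ifngr1 at 4.59 ± 0.426 and 6.05 ± 0.503 FPKM (0.39, limma adjusted p = 0.099). Tyk2 (0.25), Jak1 (0.21), Ifngr2 (0.37), Il10rb (0.20) and Ifnar1 (0.07) had estimates above 0, and Jak2 (-0.11) and Ifnlr1 (-0.42) below.

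Over all 121 other pathway genes listed, 94 were tested, 4 were higher and 0 lower, beside 1.86% and 0.472% of all genes tested. Of 45 other type I targets tested, 3 were higher: the DNA-binding Ifi204 (1.12, limma adjusted p = 0.023), the oligoadenylate synthetase family gene Oas1c (0.80, limma adjusted p = 0.028) and Samhd1, which breaks down deoxynucleotides (0.70, limma adjusted p = 0.049). Of 21 other interferon gamma targets tested, Irf8, a factor of myeloid cells, was higher (0.82, limma adjusted p = 0.027). Among 11 sensing adaptors and kinases 0 passed, with Tlr7 (1.28) and Tlr9 (0.97) at limma adjusted p of 0.059 and 0.067, and among 7 negative regulators 0 passed.

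Of 11 macrophage markers tested, 3 were higher (C1qb, Ptprc and Lyz2), 10 had groups apart and 0 were lower, and their summed level ran from 35.4 to 60.0 FPKM in young libraries, and from 76.3 to 103 FPKM in old ones. Young library 2 was the lowest of 8 for 8 of the 11, against 28.2% of all genes tested. Old library 1 was the highest for 6 and old library 2 for 1, against 9.83% and 15.3% of all genes. With libraries left out, 0 to 4 genes over all cell type lists, hormone genes not counted, were called higher. T and NK cell markers summed to 0.529 to 1.77 and 2.46 to 3.00 FPKM, with 2 of 6 tested higher (Cxcr3 and Klrd1). B cell markers summed to 2.12 to 2.88 and 2.16 to 3.07 FPKM, with 0 calls among the 2 tested. The log2 fold changes of these 2 were -0.70 and 1.21. With voom 1 of 6 B cell markers was higher and 1 lower, beside 6.59% and 1.59% of all genes tested that way. Markers of plasmacytoid dendritic cells summed to 6.21 to 8.23 and 7.75 to 8.68 FPKM (Cd300c at 0 throughout), with 0 calls among the 4 tested. Summed endothelial markers were at 66.7 to 92.5 and 68.6 to 94.4 FPKM and those of neutrophils and red cells at 13.5 to 110 and 16.1 to 126 FPKM, with 0 calls each, and of 6 fibroblast markers 2 were lower (Col1a1 and Col3a1). The part of these cells in the values of the members was not tested. The defining pituitary hormone genes were detected in every library, with 2 of 7 lower in old (Gh and Lhb).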

How the data were processed

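Poly(A) RNA of young and old pituitary was sequenced in 4 libraries per age. Per the labels and the study's methods, the authors used CASAVA 1.9, aligned reads to GRCm38 with STAR 2.6.1a, assigned them to genes with featureCounts and computed FPKM with edgeR 3.28.1. They deposited FPKM per gene and library. Ensembl release and strand setting: not given in the sources used here.

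From these values, log2(FPKM + 0.1) was tested with limma 3.58.1 (R 4.3.3, without trend or robust options). Genes under a mean of 0.1 FPKM were left out, which kept 23498, with Benjamini-Hochberg adjustment and a threshold of 0.05. A fold change on this scale understates the change of low genes. Fragments were recovered as FPKM times exon length (GENCODE M21) times library total, and came out whole (within 0.01) for 91.3 to 92.0% of low values. For Mx1, Rsad2, Stat2 and Iigp1 the annotated length gave no whole fragments. Fitted lengths served voom and library totals. Floors cover counting error only.

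The members and lists were chosen with earlier results of these data known. Values in every library were given for members that passed the test and for the 3 most abundant per role, and for Usp18, Irf7, Ifit3, Isg15 and Iigp1 as members described for their role, some of them chosen after their values were seen. Other genes were named by the smallest adjusted p per list, with receptors and kinases named whatever their p. The values of 1 listed gene are not reported here. Itgam stands on more than 1 row and was left out. Motifs were searched in RefSeq promoters. The scripts were tested on simulated data. Alternatives were other pseudocounts, filters, scalings, variance models, a replicate block and leaving out each library. Python 3.11.15 with pandas 2.3.3 and numpy 2.4.6 was used beside R.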

Additional observations from a re-analysis of the deposited data

Results flagged for a closer look

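In 4 of 80 groups of 4 libraries (40 members, 2 ages), 1 library was far from the other 3, where chance gives about 1 in 20 groups. Mx2 in young library 2 was at 0.441 FPKM, with the other young libraries at 0.272 to 0.298 FPKM, so this library was high for Mx2 although it was the lowest for most members. Oasl2 in young library 2 was at 1.83 FPKM, with the others at 2.76 to 2.82 FPKM. Rsad2 in old library 2 was at 2.22 FPKM, with the others at 1.11 to 1.22 FPKM. Parp14 in old library 2 was at 3.23 FPKM, with the others at 2.41 to 2.44 FPKM. All 4 values came from the 2 libraries that were lowest or highest for most members.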

How the results depend on the processing

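Dhx58 was the 1 member called on FPKM, and its log2 fold change stayed between 0.97 and 1.17 with each library left out. Members called higher numbered 2 of 40 with a pseudocount of 1 FPKM and with a mean-variance trend. Over all 23498 genes tested, these settings called 689 and 705 higher. With a filter of mean 1 FPKM members called higher numbered 2 of 29, beside 796 genes of a total not given here. They numbered 7 of 40 with voom, beside 6.59% of all genes tested that way. Under RLE scaling, upper-quartile scaling or a library size without hormone and ribosomal RNA repeat genes they numbered 0 of 39. With each library left out in turn they numbered 0 to 1. No alternative called a member lower. By role, antiviral effectors called higher numbered 1 with the filter of mean 1 FPKM and 3 with voom (0 to 1 with libraries left out). Sensors numbered 2 with voom and 0 with that filter, which removes Dhx58, and with each of the 3 scalings (0 to 1 with libraries left out). Transcription factors numbered 1 with a pseudocount of 1 FPKM, with that filter and with the trend, and 2 with voom. No alternative called a GTPase.

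Over all genes tested, those higher numbered 689 with a pseudocount of 1 FPKM, 263 with no filter, 796 with the filter of mean 1 FPKM, 211, 213 and 212 with RLE, upper-quartile and hormone-free scaling, 705 with the trend and 1505 with voom, and 64 to 327 with libraries left out. Those lower numbered 220, 217 and 189 with the 3 scalings, 364 with voom, and 21 to 163 with libraries left out. Other pathway genes called higher numbered 8 with a pseudocount of 1 FPKM, with the filter of mean 1 FPKM and with the trend, 2 with hormone-free scaling, 20 with voom, and 0 to 3 with libraries left out. For the cell type lists, the hormone genes were not counted here, and the main test called 5 genes higher and 2 lower. Those higher numbered 3 with a pseudocount of 0.01 FPKM and with each of the 3 scalings. They numbered 14 with voom and 0 to 4 with libraries left out. Those lower numbered 4 with voom and 1 to 3 with libraries left out. The cause was not tested in any of these cases.

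Estimates near 0 changed sign. Under RLE, upper-quartile and hormone-free scaling, Mx2 was at -0.043, -0.042 and -0.029, Oasl1 at -0.041, -0.040 and -0.029, Ifitm3 at -0.12, -0.11 and -0.099, and Gbp7 at -0.080, -0.078 and -0.064, and Mx1 fell below the filter, leaving 39 members. With libraries left out, values ran from -0.24 to 0.20 for Ifit2, -0.093 to 0.050 for Isg15, -0.11 to 0.19 for Mx1, -0.12 to 0.24 for Mx2, -0.0042 to 0.55 for Oas2, -0.15 to 0.40 for Oasl1, -0.028 to 0.29 for Rsad2, -0.12 to 0.12 for Ifitm3 and -0.10 to 0.16 for Gbp7. The cause was not tested.

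No source used here says whether the replicate numbers pair the libraries. Same-numbered young and old libraries had correlations of deviations from -0.037 to 0.037, and differently numbered ones from -0.047 to 0.037. With the replicate block, 4 genes were higher and 0 lower over all genes, 0 members, 0 sensors, 0 other pathway genes and 0 genes of the cell type lists were called, and Dhx58 lost its call at a limma adjusted p of 0.17. In this balanced design the block cannot change a fold change (1.07 for Dhx58), only its error. Depth limits the low members most: Oas3 rests on 4 to 44 fragments per library and Dhx58 on 23 to 98.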
